A study of Rattus norvegicus with 16 samples.

Results

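The genes described here are 10 genes of contraction and of myofibroblasts: Acta2, Actg2, Tagln, Cnn1, Myl9, Tpm1, Tpm2, Cald1, Myh9 and Myocd. They were taken by gene symbol from a table of 32623 rat genes, of which 22082 had at least 1 count, and all 10 symbols were present. Smooth muscle cells and myofibroblasts pull by sliding actin filaments past myosin, and tropomyosin, caldesmon, calponin and transgelin bind along the actin filament and tune that motion. Many of these genes are transcribed under serum response factor, a DNA-binding protein that works with myocardin in smooth muscle or with the related MRTF proteins, which are held in the cytoplasm by free actin monomers. In the kidney, alpha smooth muscle actin, the product of Acta2, is widely used to mark the myofibroblasts that lay down matrix in scarring tissue, and epithelial cells in culture can make it too.

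The study asked how an acidic medium alters the transcripts of tubule epithelium and of fibroblasts that share their medium. NRK-52E, a rat kidney epithelial line with properties of the proximal tubule, grew on permeable filters above NRK-49F, a rat kidney fibroblast line in the wells underneath. The shared cultures went 24 h without serum and then 48 h at pH 7.4 or pH 6.0, and poly(A)-enriched RNA of each line was sequenced as 4 libraries per line and pH, numbered N1 to N16. The 4 groups were thus NRK-52E at pH 7.4 (N1, N2, N5, N6), NRK-52E at pH 6.0 (N3, N4, N7, N8), NRK-49F at pH 7.4 (N9, N10, N13, N14) and NRK-49F at pH 6.0 (N11, N12, N15, N16). Each group is a long-established line rather than tissue, both lines were always in co-culture, and the difference between lines is also a difference between filter and plastic. The sample labels do not say whether the libraries came from separate cultures, so p-values measure only the spread between these libraries, which may be technical. Nor do they say which epithelial and fibroblast libraries shared a co-culture, and the tests between lines and of the interaction treat them as independent. Total counts per library ranged from 17760185 to 20612657 in NRK-52E at pH 7.4, from 16844811 to 23856187 in NRK-52E at pH 6.0, from 17518187 to 27607214 in NRK-49F at pH 7.4 and from 16201084 to 34784862 in NRK-49F at pH 6.0. Levels are given as FPM, fragment counts relative to the scaled total of the library, on the scale of edgeR's CPM. A gene was called a differentially expressed gene (DEG) when its false discovery rate (FDR, the Benjamini-Hochberg adjusted p over all genes tested) was below 0.01 in both edgeR and DESeq2, and the FDR values printed are those of edgeR's quasi-likelihood test unless DESeq2 is named. FPM values of different genes are not read as relative numbers of transcripts, since longer transcripts give more fragments, and sums over a list count fragments.

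The labels of the lines were read against marker genes. Several genes on a list of markers of epithelia in general were near 0 in NRK-52E as in NRK-49F. Epcam, Krt18, Cldn3, Cldn4, Cldn7 and Cdh16 did not exceed 0.315 FPM in any of the 16 libraries, and Esrp1 was at 0 in all of them. Cdh1, which encodes E-cadherin, lay between 1.33 and 1.87 FPM in NRK-52E at pH 7.4 and between 0.122 and 0.492 FPM at pH 6.0. The keratin gene Krt7 and the tight junction gene Tjp3 separated the lines at pH 7.4, with means of 36.7 and 17.3 FPM in NRK-52E against 0.463 and 1.32 FPM in NRK-49F. Cdh1 was lower in NRK-49F too, but Krt8 was higher there at pH 7.4 (0.90 log2 units, means of 848 against 430.4 FPM) and Krt19 was not called (-0.21). In NRK-49F the fibroblast marker Thy1 was at 0 in all 16 libraries, Fap did not exceed 0.202 FPM and Dcn did not exceed 0.593 FPM. Pdgfra, the receptor gene that marks many fibroblasts, ran from 339 to 447 FPM in NRK-49F at pH 7.4 and stayed at or below 0.415 FPM in all 8 NRK-52E libraries. The smooth muscle channel gene Kcnmb1, the skeletal muscle factor gene Myod1, the leukocyte gene Ptprc and the endothelial genes Kdr and Emcn were at 0 in all 16 libraries.

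Most of the genes tested were more abundant in the epithelial line than in the fibroblast line. At pH 7.4 all 7 genes that passed the filter on low counts were DEGs between the lines, against 66.6% of all genes tested. Of these, 6 were lower in NRK-49F (33.3% of all genes were called lower) and 1, Tpm2, was higher. At pH 6.0, 6 of 7 were called against 59.8% of all genes, 5 of them lower in NRK-49F (28.6% of all genes) and again Tpm2 higher (31.3%). Acid moved fewer of them. In NRK-52E, 3 of 7 tested were DEGs, Tagln, Cald1 and Myh9, a share below the 56.7% of all genes tested in that line. All 3 fell (28.5% of all genes fell). None of the 7 was called higher by both tools (28.2% of all genes were), while DESeq2 alone called 1 higher and 2 were higher at an unadjusted edgeR p under 0.05. Leaving out N2, N3 or N6 gave 1 called higher and leaving out N7 gave 2, in part because Cnn1 then passed the filter. In NRK-49F, 4 of 6 tested were DEGs, Acta2, Tpm1, Tpm2 and Cald1, against 37.8% of all genes. All 4 fell (19.4% of all genes fell). Against 18.4% of all genes that rose, 0 members were higher by edgeR, by DESeq2 or at an unadjusted edgeR p under 0.05. The pH effect itself differed between the lines in 4 of 7 genes tested, against 36.9% of all genes tested for that interaction. The values themselves can be read the same way. Counting tested members whose 4 libraries lay wholly on one side, 5 of 7 did so under acid in NRK-52E (62.9% of all genes tested), 2 higher (31.5%) and 3 lower (31.4%). In NRK-49F it was 4 of 6 (48.2% of all genes), with 0 higher (24.4%) and 4 lower (23.8%). Between lines it was 7 of 7 at pH 7.4 (70.5%), 1 higher in NRK-49F (38.1%) and 6 lower (32.4%), and 6 of 7 at pH 6.0 (64.4%), 1 higher (33.5%) and 5 lower (30.9%). In NRK-52E the share of members called was thus below that of all genes and the share set apart near it, so neither count marks these genes out in that line. Calls toward lower values made up a larger share of the tested members than of all genes in all 4 comparisons, over only 6 or 7 genes each. Between lines Myl9, with 2 and 0 counts in NRK-49F, passed the filter through NRK-52E alone, and without it 5 of 6 were lower at pH 7.4 and 4 of 6 at pH 6.0. Actg2, Cnn1 and Myocd had too few counts to be tested in any comparison on all libraries, and Myl9 too few in the comparison within NRK-49F.

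**Figure D1:**
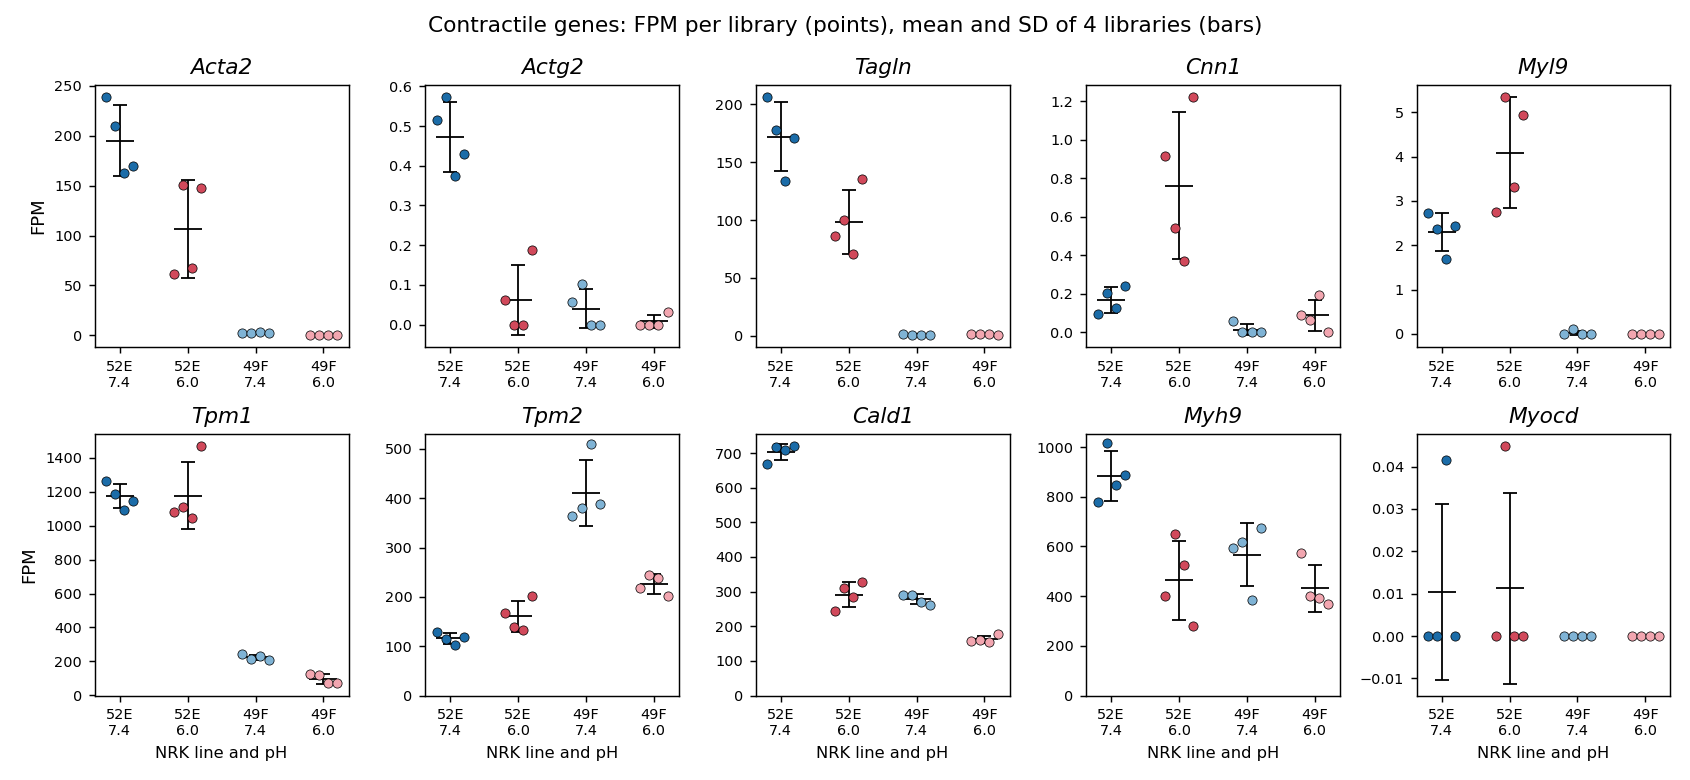
Level of each of the 10 genes in FPM (linear axis from 0) in every library, grouped by cell line and pH; points are libraries and bars the mean with SD of 4. Acta2 and Tagln reach 239 and 207 FPM in NRK-52E and stay at or below 3.03 and 1.59 FPM in NRK-49F, while Tpm2 is highest in NRK-49F at pH 7.4.

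Acta2 encodes alpha smooth muscle actin. In NRK-52E it measured 239, 209, 162 and 169.6 FPM in N1, N2, N5 and N6 at pH 7.4, and 61.0, 150.1, 67.1 and 148 FPM in N3, N4, N7 and N8 at pH 6.0. In NRK-49F the corresponding values were 2.29, 2.02, 3.03 and 2.02 FPM at pH 7.4 and 0.664, 0.464, 0.390 and 0.313 FPM at pH 6.0. The 4 groups did not overlap, and the acid NRK-52E libraries fell into a higher pair, N4 and N8, and a lower pair, N3 and N7. That split did not follow the second number carried by the library names, which groups N3 with N4 and N7 with N8. The means were 195 ± 35.7 FPM in NRK-52E at pH 7.4, 106 ± 49.1 at pH 6.0, 2.34 ± 0.477 in NRK-49F at pH 7.4 and 0.458 ± 0.151 at pH 6.0 (SD, n = 4). The pH change in NRK-52E, a log2 fold change of -0.89 ± 0.29 (SE), was not called: FDR was 0.017 in edgeR and 0.00542 in DESeq2. It was called without N4 (-1.11, FDR 0.00668) or without N8 (-1.10, FDR 0.00398). It was also called under scaling by library totals (-1.09), with no filter on low counts (-0.92) or in a single model of 16 libraries (-0.91). The value ran from -1.11 to -0.70 as each library was left out in turn. Over all alternatives the FDR lay between 0.00233 and 0.196. In NRK-49F Acta2 fell by 2.38 ± 0.33 log2 units (FDR 8.5e-05), lower in 4 of 4 acid libraries, on a total of 177 counts at pH 7.4 and 44 at pH 6.0. Fewer cells that make the transcript and less transcript per cell cannot be told apart here or in any later result. The interaction, the pH effect in NRK-52E minus that in NRK-49F, was 1.48 ± 0.50 and was not called (FDR 0.0205 in edgeR, 0.00328 in DESeq2). It was called without N3 (1.56, FDR 0.00874), without N7 (1.65, FDR 0.00664) or with no filter on low counts (1.49, FDR 0.00937). Over all alternatives the FDR of the interaction ran from 0.00664 to 0.0739. Between lines, Acta2 was lower in NRK-49F by log2 values of -6.49 ± 0.17 at pH 7.4 (FDR 3.9e-11) and -7.88 ± 0.42 at pH 6.0 (FDR 7.57e-09).

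The low Acta2 of the fibroblast line can be set beside transcripts typical of the epithelial line. Mean Acta2 in NRK-49F came to 1.20% of that in NRK-52E at pH 7.4 and to 0.430% at pH 6.0. For Tagln these shares were 0.451% and 1.32%, for Krt7 1.26% and 0.495% (32 and 8 counts), for Tjp3 7.63% and 1.99%, and for Myh14, a nonmuscle myosin heavy chain, 0.141% and 0.0241% (22 and 5 counts in NRK-49F). Cdh1 was at 0 in NRK-49F at pH 7.4. At pH 6.0 its share was 73.0%, but Cdh1 was near the floor in both lines there. The means were 0.230 FPM in NRK-49F and 0.315 FPM in NRK-52E, with at most 12 counts in a library. In the other direction, mean Pdgfra in NRK-52E was 0.0731% of its NRK-49F level at pH 7.4 and 0.0153% at pH 6.0, Prrx1 was at 0.0158% and 0, Lum at 0.412% and 0, and Twist1 at 1.49% and 2.24%. Of the 12 epithelial markers, 3 reached 1 FPM in NRK-49F at pH 7.4 and 2 at pH 6.0, with summed levels of 852 ± 69.9 and 208 ± 8.96 FPM, nearly all fragments of Krt8 (means 848 and 206 FPM), and 3 markers were at 0 at each pH. The authors state that the filter pores kept the cells of each compartment out of the other and that the compartments were taken apart before processing. The part of carried-over epithelial RNA in the Acta2 values of NRK-49F was not tested.

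Actg2, the gene of gamma smooth muscle actin of gut and bladder, was close to the limit of detection. In NRK-52E it gave 0.515, 0.574, 0.373 and 0.428 FPM at pH 7.4, 43 counts in all, and 0.0612, 0, 0 and 0.188 FPM at pH 6.0, 5 counts in all. In NRK-49F 3 counts were recorded at pH 7.4 and 1 at pH 6.0. The NRK-52E groups did not overlap, with the pH 7.4 libraries higher, and the exact two-sided permutation p of 0.0286 is the smallest that 4 against 4 libraries can give. The other 3 groups overlapped one another. At pH 7.4 the ratio of NRK-52E to NRK-49F was 12.3 (95% interval 3.93 to 61.8), and at pH 6.0 it was 5.96 (0.667 to 282). These intervals, like the others given for ratios of counts, cover counting error only. Fragments that align to several genes were counted, and the actin genes are similar in their coding sequence. How far the few Actg2 counts are Acta2 fragments was not tested and is uncertain.

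Tagln encodes transgelin, a calponin-related protein that bundles actin and appears early in smooth muscle differentiation. The NRK-52E libraries held 207, 178, 133 and 171 FPM at pH 7.4 and 86.1, 100.1, 70.9 and 135 FPM at pH 6.0. Those of NRK-49F held 1.09, 0.859, 0.527 and 0.633 FPM at pH 7.4 and 1.24, 1.59, 1.43 and 0.907 FPM at pH 6.0. Within each line the groups overlapped by a single library, N8 standing level with N5 in NRK-52E and N16 lying under N9 in NRK-49F. Tagln was ordered NRK-52E at pH 7.4 (172 ± 30.2 FPM), NRK-52E at pH 6.0 (98.1 ± 27.5), NRK-49F at pH 6.0 (1.29 ± 0.294) and NRK-49F at pH 7.4 (0.776 ± 0.249), and the last 2 groups did not differ by the DEG rule. It fell in NRK-52E by 0.83 ± 0.19 log2 units (FDR 0.00305), with 3 of 4 acid libraries under all control libraries. The call was lost without N1 (-0.74, FDR 0.0103) or without N3 (-0.77, FDR 0.0136), and over all alternatives the FDR lay between 9.27e-05 and 0.196. In NRK-49F the value was 0.70 ± 0.33 (FDR 0.0932), not called, on 60 counts at pH 7.4 and 125 at pH 6.0. The pH effects of the lines differed, with an interaction of -1.53 ± 0.37 (FDR 0.00206). Against NRK-52E, Tagln in NRK-49F stood at -7.87 ± 0.20 log2 units at pH 7.4 (FDR 2.49e-11) and at -6.26 ± 0.26 at pH 6.0 (FDR 8.09e-10).

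Cnn1 encodes calponin 1, an actin-binding protein of differentiated smooth muscle that slows the myosin motor. Its levels in NRK-52E were 0.0937, 0.205, 0.124 and 0.238 FPM at pH 7.4 and 0.917, 0.539, 0.369 and 1.22 FPM at pH 6.0, from 15 and 62 counts. NRK-49F gave 1 count at pH 7.4 and 9 at pH 6.0. In NRK-52E all 4 acid libraries lay above all 4 control libraries (exact two-sided permutation p = 0.0286, the smallest possible), whereas those of NRK-49F overlapped (exact permutation p = 0.143). Cnn1 and Actg2 thus had opposite orders in NRK-52E, although neither passed the filter. With no filter on low counts both were called there, Actg2 lower (-2.91, FDR 0.00507) and Cnn1 higher (FDR 0.00418). As libraries were left out, Cnn1 passed the filter and was called higher without N2 (2.26, FDR 0.00847), N6 (2.31, FDR 0.00642) or N7 (2.39, FDR 0.00164) but not without N1 or N5, and Actg2 was called lower without N5 (-3.01, FDR 0.00722) but not without N3. Where they could be tested, the FDR ran from 0.00164 to 0.0327 for Cnn1 and from 0.00507 to 0.0117 for Actg2. With no filter, between lines Actg2 was called lower in NRK-49F at pH 7.4 (FDR 0.000659) and Cnn1 at pH 6.0 (FDR 0.00167), the latter also without N7, N11, N12, N15 or N16. The ratio of NRK-52E to NRK-49F was 12.8 at pH 7.4 (95% interval 1.97 to 540.3) and 8.21 at pH 6.0 (4.06 to 18.8).

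Cald1 encodes caldesmon, which binds actin and tropomyosin and holds back the myosin motor until calcium-calmodulin releases it. Levels in NRK-52E were 668, 717, 708 and 720.0 FPM at pH 7.4 and 244, 310.1, 283 and 328 FPM at pH 6.0. Levels in NRK-49F were 291, 291, 269 and 262 FPM at pH 7.4 and 159, 159.6, 154 and 177 FPM at pH 6.0. In both lines every acid library was below every control library, and the spread within groups was narrow. The order was NRK-52E at pH 7.4 (703 ± 24.1 FPM), NRK-52E at pH 6.0 (291 ± 36.3), NRK-49F at pH 7.4 (278 ± 14.95) and NRK-49F at pH 6.0 (162 ± 10.3), where the middle groups overlapped. By the DEG rule on all libraries, Cald1 was the only one of the 10 genes called in both lines under acid, since Acta2 in NRK-52E was called only with a library left out or other settings. It fell by 1.29 ± 0.10 log2 units in NRK-52E (FDR 1.82e-06) and by 0.79 ± 0.09 in NRK-49F (FDR 1.6e-05). The interaction of -0.51 ± 0.13 was called (FDR 0.00321), the fall being larger in NRK-52E. Between lines Cald1 was lower in NRK-49F, at -1.42 ± 0.08 log2 units at pH 7.4 (FDR 1.13e-08) and -0.83 ± 0.11 at pH 6.0 (FDR 3.05e-05).

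The tropomyosins lie in the groove of the actin filament and gate access of myosin, and Tpm1 and Tpm2 each give muscle and nonmuscle forms that gene counts do not separate. Tpm1 in NRK-52E measured 1265, 1189, 1093 and 1148 FPM at pH 7.4 and 1081, 1110.0, 1043 and 1472 FPM at pH 6.0. In NRK-49F it measured 241, 211, 232 and 209 FPM at pH 7.4 and 126, 119.9, 74.9 and 69.7 FPM at pH 6.0. The NRK-52E groups overlapped with nearly equal means, 1174 ± 72.1 and 1177 ± 199 FPM, and N8 stood above the rest, while in NRK-49F the groups were apart, 224 ± 15.8 against 97.7 ± 29.6 FPM. The pH value in NRK-52E was -0.01 ± 0.13 log2 units (FDR 0.934), and its sign turned to 0.01 without N1, 0.02 without N3, 0.00 without N4 and 0.05 without N7. Tpm1 fell in NRK-49F by 1.21 ± 0.18 log2 units (FDR 0.00018), lower in 4 of 4 acid libraries. The interaction, 1.18 ± 0.24, was called (FDR 0.000445). Lower Tpm1 in NRK-49F was called at both pH values, -2.48 ± 0.08 at pH 7.4 (FDR 2.69e-10) and -3.57 ± 0.23 at pH 6.0 (FDR 3.57e-08).

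Tpm2 was the exception among the genes tested, with its highest level in the fibroblasts. It measured 364, 379.8, 510.5 and 389 FPM in NRK-49F at pH 7.4 and 219, 244, 239 and 201 FPM at pH 6.0. The NRK-52E libraries gave 129.8, 115, 103 and 119 FPM at pH 7.4 and 168, 139.8, 133 and 201 FPM at pH 6.0. From high to low the means were 411 ± 67.2 FPM (NRK-49F at pH 7.4), 226 ± 19.7 (NRK-49F at pH 6.0), 161 ± 31.3 (NRK-52E at pH 6.0) and 117 ± 11.1 (NRK-52E at pH 7.4). No pair of groups overlapped, yet at pH 6.0 the lowest fibroblast library, N16, was level with the highest epithelial one, N8. Tpm2 fell in NRK-49F by 0.88 ± 0.12 log2 units (FDR 0.000105). In NRK-52E its value was 0.45 ± 0.14 and was not called (FDR 0.016 in edgeR, 0.0131 in DESeq2), but it was called without N7 (0.54, FDR 0.00682; over all alternatives up to 0.125). The interaction was 1.31 ± 0.19 (FDR 1.99e-05). Against NRK-52E, Tpm2 was higher in NRK-49F by 1.73 ± 0.12 log2 units at pH 7.4 (FDR 9.45e-08) and by 0.51 ± 0.14 at pH 6.0 (FDR 0.00641). The latter call was lost without N3 (0.51), N4 (0.42), N7 (0.40), N11 (0.53), N12 (0.48) or N15 (0.49), with FDR between 0.0116 and 0.034, and when libraries were scaled by their totals alone (0.36, FDR 0.0286). It was also lost with the second number of the library names as a covariate (0.52, FDR 0.0505 in edgeR and 0.0669 in DESeq2) and within number 21 (0.53, FDR 0.0162), the FDR running from 0.000321 to 0.0505 over all alternatives.

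Myh9 encodes the heavy chain of nonmuscle myosin IIA, the motor of stress fibres. Its levels in NRK-52E were 779.6, 1017, 847 and 887 FPM at pH 7.4 and 401, 648, 526 and 279 FPM at pH 6.0. Those in NRK-49F were 594, 616, 384 and 674 FPM at pH 7.4 and 572.5, 399, 392 and 367 FPM at pH 6.0. NRK-52E at pH 7.4 (883 ± 99.95 FPM) lay above all other libraries, and the remaining groups overlapped, at 567 ± 127 (NRK-49F at pH 7.4), 464 ± 159 (NRK-52E at pH 6.0) and 433 ± 94.3 FPM (NRK-49F at pH 6.0). Myh9 fell in NRK-52E by 0.96 ± 0.21 log2 units (FDR 0.00193), lower in 4 of 4 acid libraries. In NRK-49F the value was -0.40 ± 0.18 (FDR 0.0763), not called, although it was called without N13 (-0.54, FDR 0.00919, the lowest of alternatives that reached 0.193). The pH effects were not shown to differ between the lines (interaction -0.56 ± 0.30, FDR 0.131). At pH 7.4 Myh9 was lower in NRK-49F, at -0.72 ± 0.16 log2 units (FDR 0.00133). That call was lost with the second number of the library names as a covariate (-0.83, FDR 0.0125), within number 21 or in a single model. At pH 6.0 the lines gave -0.08 ± 0.23 (FDR 0.767), a value that turned to 0.10 without N4 and to 0.00 without N16.

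Myl9, which encodes the regulatory light chain of smooth muscle myosin, was low in NRK-52E and almost absent from the NRK-49F libraries. The epithelial libraries held 2.72, 2.38, 1.70 and 2.43 FPM at pH 7.4 and 2.75, 5.35, 3.32 and 4.94 FPM at pH 6.0, from 208 and 350 counts. NRK-49F gave 2 counts at pH 7.4, both in N10, and 0 at pH 6.0. All acid NRK-52E libraries were above all controls, N3 by little, with means of 4.09 ± 1.25 against 2.31 ± 0.431 FPM. The log2 fold change of 0.81 ± 0.26 was not called (FDR 0.0163 in edgeR, 0.00834 in DESeq2), but it was called without N3 (0.95, FDR 0.00744, the lowest of alternatives that reached 0.181). The ratio of NRK-52E to NRK-49F was 89.0 at pH 7.4 (95% interval 24.3 to 739.7). At pH 6.0 Myl9 was at least 20.6-fold higher in NRK-52E, taking a floor of 3 counts per library for NRK-49F. Its coding sequence is close to those of Myl12a and Myl12b, and fragments that align to several genes were counted. NRK-49F held 46211 Myl12a and 13622 Myl12b counts at pH 7.4 beside the 2 of Myl9. At pH 6.0 it held 36914 and 15014 beside 0. The part of such fragments in the Myl9 level of NRK-52E was not tested. Myocd, the gene of myocardin, gave 1 count in N5 and 1 in N4 and 0 in the other 14 libraries, so no fold is given.

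**Figure D2:**
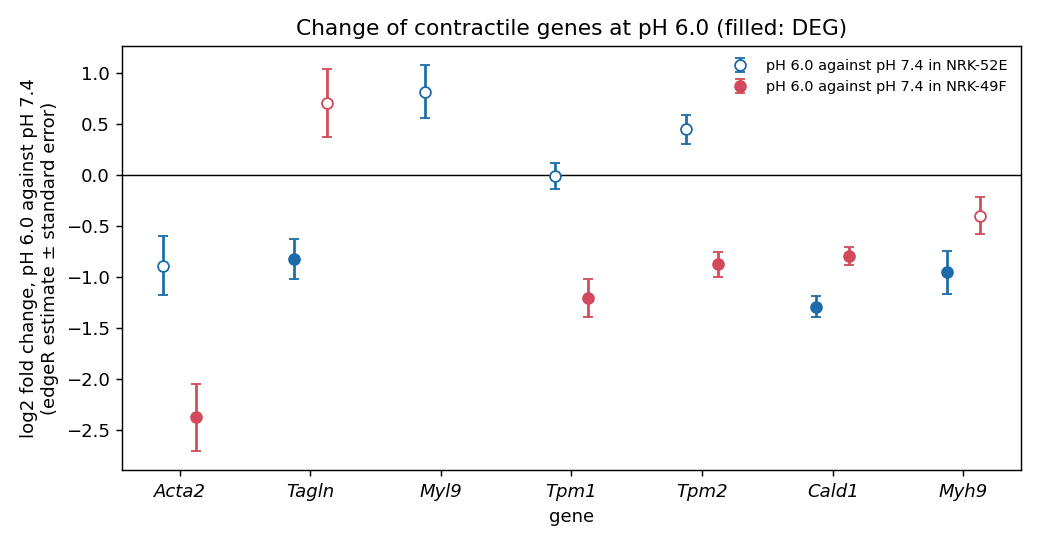
Log2 fold change at pH 6.0 against pH 7.4 with its standard error (bars) for the genes tested, 7 in the epithelial line and 6 in the fibroblast line; filled points are DEGs. Cald1 falls in both lines, by 1.29 and 0.79, while Tpm1 stays at -0.01 in NRK-52E and falls by 1.21 in NRK-49F.

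Over the 7 members tested in NRK-52E, the median log2 fold change at pH 6.0 was -0.83, beside 0.00 over all genes tested. Over the 6 tested in NRK-49F it was -0.83, beside -0.00. Between lines the median, Myl9 included, was -2.48 at pH 7.4 beside -0.03 over all genes, and -3.57 at pH 6.0 beside 0.03. With Myl9 set at its bound the latter was unaltered, and without Myl9 it was -2.20 over 6 members. The interaction had a median of 1.18, beside -0.01 over all genes, but of 0.33 over the 6 members other than Myl9, whose fitted value rests on a group at 0. Since only genes with enough counts enter these medians, they describe the tested members and not all 10. Scaling by library totals alone moved the median of all genes to -0.21 for acid in NRK-52E, 0.04 for acid in NRK-49F, -0.34 and -0.12 for the lines at pH 7.4 and pH 6.0, and -0.25 for the interaction. It moved the share of DEGs called higher from 49.8% to 37.6% in NRK-52E, from 48.7% to 53.2% in NRK-49F, from 50.01% to 34.3% between lines at pH 7.4, from 52.3% to 45.04% at pH 6.0 and from 52.4% to 33.8% for the interaction. No tested member changed sign under that scaling or under DESeq2's size factors. Under library totals Acta2 in NRK-52E was called (-1.09), the only call gained among the members' log2 fold changes.

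The library names carry a second number, 21 or 22 in NRK-52E and 20 or 21 in NRK-49F, whose meaning is not given, with 2 libraries per number and pH. Within number 21 and number 22 the pH value in NRK-52E was -1.36 and -1.24 for Cald1, -0.82 and -1.13 for Myh9 and -1.09 and -0.57 for Tagln. Within number 20 and number 21 the pH value in NRK-49F was -1.88 and -2.83 for Acta2, -0.87 and -1.63 for Tpm1, -0.68 and -1.05 for Tpm2 and -0.87 and -0.70 for Cald1. Each called member thus kept its direction in both parts of its line. The calls were lost for Myh9 within each number (FDR 0.028 and 0.0247), for Tagln within number 22 (FDR 0.196), for Acta2 within number 20 (FDR 0.0161 in DESeq2) and for Cald1 in NRK-49F within number 21 (FDR 0.0124). Number 21, the one present in both lines, gave interactions of -2.04 for Tagln, 1.43 for Tpm1, 1.35 for Tpm2 and -0.66 for Cald1, the last not called (FDR 0.0451). Between lines at pH 7.4 the call of Myh9 was lost with that number as a covariate (-0.83, FDR 0.0125), within number 21 (-0.84, FDR 0.0332) and with all 16 libraries in a single model (-0.64, FDR 0.0126), the alternatives running from 0.000212 to 0.0332.

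By a fixed count of the 5 best correlates, the genes most like Acta2 over the 16 libraries, after each line's mean was subtracted, were Mpg, Ino80b, Ctdsp1, Anxa6 and Fam222b, with Pearson r from 0.919 to 0.937 among 9825 genes. For Tagln they were B4gat1, Fitm2, Clic3, Riox1 and Ttc27, with r from 0.893 to 0.915. These values describe libraries that share their pH groups and carry no p.

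Regulators of serum response factor and of the MRTF proteins were counted next, 14 of 17 listed genes being in the table. The shares of all genes tested, to be set beside the counts of each list, were 28.2% risen and 28.5% fallen under acid in NRK-52E and 18.4% and 19.4% in NRK-49F. Between lines they were 33.3% higher and 33.3% lower in NRK-49F at pH 7.4 and 31.3% and 28.6% at pH 6.0, and for the interaction 19.3% positive and 17.5% negative. Of 14 regulators tested in NRK-52E under acid, 3 rose and 5 fell, counts near those shares, with a median of -0.26. Rock1, a kinase that promotes stress fibres, rose by 1.14 ± 0.13 log2 units, and Rhob, Mrtfa and Gata6 changed by -1.14, -1.06 and -1.04. In NRK-49F 5 of 14 fell and 0 rose by edgeR, by DESeq2 or at an unadjusted edgeR p under 0.05, with a median of -0.16. Tgfb1i1, a focal adhesion adaptor, changed by -1.84, Gata6 by -0.89 and Mrtfa by -0.86. Srf itself, named here after its values were seen, was a DEG in NRK-52E (-0.58) but not in NRK-49F (-0.44). The pH effect on Srf was not shown to differ between the lines, since its interaction was not called. Between lines 6 of 14 were higher and 6 lower in NRK-49F at pH 7.4, against 33.3% each way of all genes, with Klf4, a repressor of smooth muscle genes, at 5.47. At pH 6.0, 5 were higher (3 with the covariate) and 6 lower. The interaction was called in 5 genes, 4 positive and 1 negative, the widest being Tgfb1i1 at 1.55 and Rhob at -1.07. Without N3 the counts were 2 and 2, without N4 3 were negative, and under library totals 1 was positive and 2 were negative. Within number 21 or number 22 the falls in NRK-52E were 3, with 0 rises within number 22, and within number 21 there was 1 fall in NRK-49F and 1 positive interaction.

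Genes that set the phosphorylation of the myosin light chain, 7 of 9 listed, had a median of 0.31 under acid in the epithelial line and of -0.32 in the fibroblasts. In NRK-52E 3 of 7 rose (28.2% of all genes), Dapk3, Ppp1r12b and Ppp1cb, and 2 fell (28.5%, a share near theirs), Ppp1r14a (-1.52) and Ppp1r14b (-0.61). Ppp1r14a encodes CPI-17, an inhibitor of myosin phosphatase. Under library totals only 1 of these rises was called, and 1 of the falls without N1, N2, N4, N6 or N7 or with the covariate. In NRK-49F Mylk, the light chain kinase gene, changed by -1.60 and Ppp1r14b by -0.72, whereas Ppp1r12b, a subunit of the phosphatase, rose by 0.77, against 19.4% of all genes fallen and 18.4% risen. Between lines 2 were higher and 4 lower in NRK-49F at pH 7.4, Mylk at 1.86 among the former and Ppp1r12b at -2.78 among the latter. At pH 6.0, 1 was higher (0 without N4, N7, N12 or N15, under library totals or with the covariate) and 4 were lower. Of the pH effects, 1 of 7 differed between lines, that of Dapk3 (1.15), and 2 were positive without N7, N8, N14 or N16. The negative count, 0 by the DEG rule and by edgeR alone, was 1 under library totals, without N3, N5, N8 or N11, and at an unadjusted edgeR p under 0.05, while DESeq2 alone gave 3 positive and 1 negative. In NRK-52E 1 rose within each number and 1 and 0 fell within number 21 and number 22, and in NRK-49F 0 rose and 0 fell within number 21.

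The other actins, myosins and tropomyosins numbered 12, of which 11 had counts enough in the epithelial line and 9 in the fibroblasts. Actb, the gene of cytoplasmic beta actin, fell by 0.99 log2 units in each line. Of those tested under acid, 2 of 11 rose (28.2% of all genes) and 3 fell (28.5%) in NRK-52E (median 0.04), shares at or below those of all genes, with Myl12b at 1.44 and Myh11, the smooth muscle myosin heavy chain gene, at 1.36. In NRK-49F 1 of 9 rose (18.4%) and 6 fell (19.4%), for a median of -0.72, Myh11 at 0.77, Myh10 at -0.91 and Myl6 at -0.77. The rise of Myh11 in NRK-49F was not called without N9 or without N15, which left 0 risen genes. The interaction was called in 6 of 11, all 6 positive, among them Myl12b (1.66) and, on few counts in NRK-49F, Myh14 (2.40). Under library totals 3 were positive. By edgeR, by DESeq2 and at an unadjusted edgeR p under 0.05, 0 were negative. Between lines 3 were higher and 3 lower in NRK-49F at pH 7.4, and 1 and 6 at pH 6.0, with 5 lower at pH 7.4 under library totals. Myh14 stood at -9.51 and -11.83, fitted values that rest on 22 and 5 counts in NRK-49F. Within number 22, 1 rose and 1 fell in NRK-52E, within number 21, 2 fell in NRK-49F and 3 interactions were positive, and 0 rose in NRK-49F within either number.

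Relatives of calponin and transgelin and other actin binders, 21 genes, were looked at as well. Under acid 10 of 19 tested fell (19.4% of all genes) and 1 rose (18.4%) in NRK-49F (median -0.51), among them Zyx (-1.30), Cnn2 (-1.19) and Csrp1 (-1.03), while Fhl1 rose by 0.93. In NRK-52E 6 of 20 fell and 4 rose (median 0.01), close to or below the 28.5% and 28.2% of all genes, with Csrp2 at -2.05, Zyx at -1.49, Cnn3 at 1.02 and Tagln2 at 0.66. Without N2, N3 or N7 the count that fell there was 3, and under library totals 2 rose. The pH effects differed in 9 of 20, 7 positive and 2 negative, with Tagln2 at 1.60 and Csrp1 at 1.55 against Csrp2 at -1.95. The positive count was 4 without N3 and 3 under library totals. Between lines 5 were higher and 6 lower in NRK-49F at pH 7.4, and 5 and 10 at pH 6.0 (3 higher without N7, 5 lower without N15), with Pdlim1 at 5.69 and 5.57. Under library totals 10 were lower at pH 7.4 and 3 higher at pH 6.0, and 3 were also higher there with the second number as covariate. Synpo2 was lower in NRK-49F on only 4 and 3 counts, with ratios of NRK-52E to NRK-49F of 84.1 (95% interval 32.6 to 310.1) and 82.6 (27.9 to 404). In NRK-52E 1 rose within each number and 3 and 1 fell within number 21 and number 22. In NRK-49F 6 fell within number 21 and 2 rose within number 20, and within number 21, 2 were lower at pH 7.4, 3 higher at pH 6.0 and 1 interaction negative.

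Several genes of a separate list of smooth muscle markers, which leaves out the members, rose under acid. In NRK-52E 6 of 8 tested rose under acid (28.2% of all genes) and 1 fell (28.5%), with a median of 1.02, and 3 rose within number 22. In NRK-49F 5 of 7 rose (18.4%) and 1 fell (19.4%), with a median of 0.98, and within number 21 the counts were 3 and 0. The members were called the other way: by the DEG rule 3 of 7 tested fell in NRK-52E and 4 of 6 in NRK-49F, and 0 rose. Among them Cald1 changed by -1.29 and -0.79 in NRK-52E and NRK-49F, and Acta2 by -2.38 in NRK-49F. Des, the gene of the intermediate filament protein desmin, measured 1.78, 0.656, 0.8291 and 0.666 FPM in NRK-52E at pH 7.4 and 31.9, 27.2, 29.0 and 36.3 FPM at pH 6.0. Its NRK-49F values were 1.09, 1.01, 1.05 and 1.15 FPM at pH 7.4 and 2.75, 3.51, 2.50 and 3.10 FPM at pH 6.0. Acid libraries were higher without overlap in both lines, by 4.97 ± 0.29 log2 units in NRK-52E (FDR 2.51e-07) and 1.44 in NRK-49F, and the interaction was 3.53 (FDR 4.1e-07). Pln, the gene of phospholamban, and Hspb6 also rose in NRK-52E, the latter by 1.85, and there Rgs5, a pericyte marker, changed by -2.60. Notch3 rose by 2.03 in NRK-49F, and Lmod1 changed by -3.42. Summed over the 10 markers the levels were 237 ± 16.51 and 443 ± 54.3 FPM in NRK-52E at pH 7.4 and pH 6.0, and 133 ± 17.4 and 253 ± 38.7 FPM in NRK-49F. Between lines 1 was higher and 3 lower in NRK-49F at each pH, where at pH 6.0 0 were higher without N3, N11 or N15, under library totals, with the covariate or within number 21, and 5 were lower without N8, in a single model or within number 21. The interaction was called in 4 of 9, 3 positive and 1 negative, and within number 21 in 1 and 0. Striated muscle markers were scarce, 3 of 12 reaching 1 FPM in each NRK-52E group: 2 rose there (Tnnt2 and Tnnt3, of which 1 when any of N1 to N6 or N8 was left out, under library totals, with either other filter, with the covariate or within number 22, and 0 within number 21), 0 fell there (1 by DESeq2 alone, at an unadjusted edgeR p under 0.05, under library totals, in a single model or without N7 or N8) and 1 fell in NRK-49F (Tnni3, 0 without N9, N10, N11, N12, N13 or N15, with the filter at 1 CPM or within either number). Between lines 1 striated marker was higher and 3 were lower in NRK-49F at each pH, and the interaction was positive in 2 of 4. Within number 21, 1 was lower at pH 7.4 and 0 interactions were positive.

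**Figure D3:**
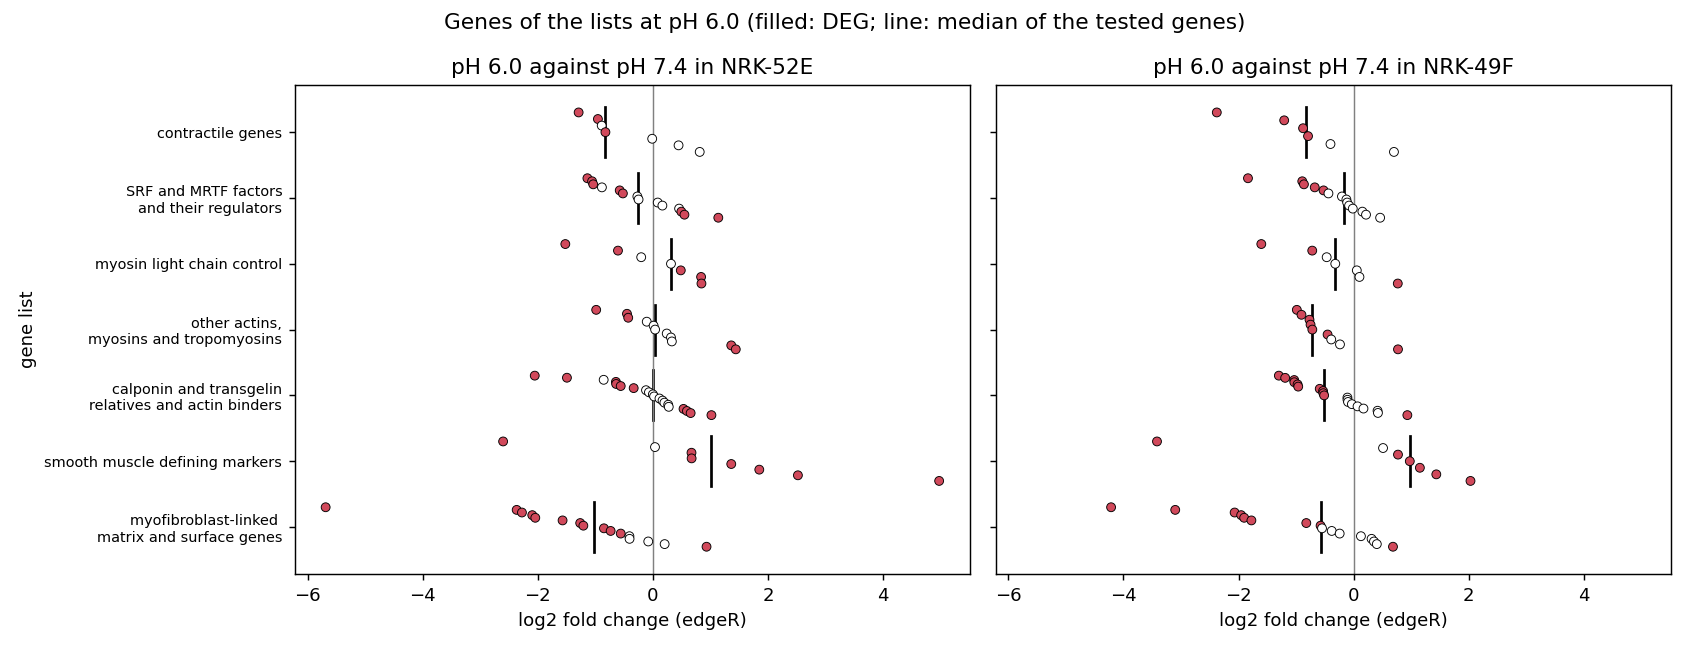
Log2 fold change at pH 6.0 against pH 7.4 of each tested gene of 7 lists in each cell line; filled points are DEGs and the short line is the median of the list. Smooth muscle markers have medians of 1.02 and 0.98, and myofibroblast matrix genes of -1.03 and -0.56, in NRK-52E and NRK-49F.

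Matrix and surface genes linked to myofibroblasts lay mostly with the fibroblasts, unlike most of the tested members. Of 16 tested, 10 were higher and 3 lower in NRK-49F at pH 7.4, against 33.3% each way of all genes (median 2.26; 5 lower under library totals), with Col1a1 at 7.96, Fn1 at 6.97 and Cdh11 at 6.44. Col3a1 was the widest in the other direction, at -3.85, with 6102 to 6318 FPM in NRK-52E and 399 to 612 FPM in NRK-49F at pH 7.4. At pH 6.0, 10 were higher and 4 lower (median 2.34). Under acid 11 of 16 fell (28.5% of all genes) and 1 rose (28.2%) in NRK-52E (median -1.03), and 8 fell (19.4%) and 1 rose (18.4%) in NRK-49F (median -0.56). Postn and Tnc changed by -2.37 and -2.28 in NRK-52E, where Cdh11 fell from 134 counts to 2, a ratio of pH 7.4 to pH 6.0 of 62.1 (95% interval 16.9 to 518). In NRK-49F Ccn2, Col3a1 and Tnc changed by -4.21, -3.10 and -2.07. The gene that rose in NRK-52E was Itga5 (0.93), and in NRK-49F the count that rose was 2 without N16 and under library totals, size factors of DESeq2, the filter at 1 CPM, the covariate or number 20 alone. It was 3 by DESeq2 alone, at an FDR of 0.05 and at an unadjusted edgeR p under 0.05, and 0 within number 21. Within number 22, 6 fell and 0 rose in NRK-52E. The pH effects differed in 8 of 16, 3 positive and 5 negative, with Ccn2 at 2.64 and Cdh11 among the negative ones on its 2 counts, and 2 were negative within number 21.

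Markers of other cell types moved with pH as well. Of the fibroblast markers, 5 of 7 tested fell in NRK-52E (28.5% of all genes; median -1.06) and 5 of 9 in NRK-49F (19.4%; median -1.47). By the DEG rule 0 rose in either line, though in NRK-49F DESeq2 alone called 1 higher and 2 were higher at an unadjusted edgeR p under 0.05, against 0 by both measures in NRK-52E. Their summed level was 7015 ± 202 FPM in NRK-52E at pH 7.4 and 3016 ± 578 at pH 6.0, most of it fragments of Col3a1, while Pdgfra and Prrx1 were near 0 in that line. In NRK-49F the sum was 16670 ± 786 FPM at pH 7.4 and 12105 ± 722 at pH 6.0. Among the epithelial markers 4 of 5 tested fell and 1 rose in NRK-52E (median -1.25), for sums of 489 ± 32.1 and 376 ± 32.5 FPM, and 1 of 3 fell in NRK-49F. The leukocyte marker Cd68, a lysosomal protein gene, had means of 81.2 and 242.7 FPM in NRK-49F at pH 7.4 and pH 6.0, and was the 1 leukocyte gene called there (1.56), while Csf1r, which rose, was the 1 called in NRK-52E. The endothelial marker Tek had means of 41.1 and 7.02 FPM in NRK-52E and was the 1 endothelial gene called there (-2.57), and Vwf was the 1 called in NRK-49F (-1.34). The part of these shifts in the results for the contractile genes was not tested.

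Because Acta2 and several other members are known targets of serum response factor, the 250 bases before their transcription start were searched on both strands for the CArG box, the site of that factor: CC, then 6 bases of A or T of which at most 1 may be another base, then GG. RefSeq windows of the GRCr8 assembly were given for 7 of the 10 genes, as 9 windows, and those of Tagln, Myl9 and Myocd were not among them. A CArG box was present in 8.08% of all 33469 windows, and in 1.50% with no exception allowed. Of the 7 genes, 1, Acta2, held matches, a pair of boxes with 1 exception each. With the exception allowed at any of the 10 bases, a rule chosen after seeing the data, 18.7% of windows and 3 of the 7 genes matched, Acta2, Tpm1 and Cald1. The Acta2 window, chr1:241172504-241172753 on the minus strand, is printed with both boxes in capitals since Acta2 differs most between the lines among the genes with a window, and the Tpm1 window, chr8:76543416-76543665 on the minus strand, stands beside it as that of a member that fell in the fibroblasts and had no box by the first rule, though it had 2 by the wider one.
Acta2: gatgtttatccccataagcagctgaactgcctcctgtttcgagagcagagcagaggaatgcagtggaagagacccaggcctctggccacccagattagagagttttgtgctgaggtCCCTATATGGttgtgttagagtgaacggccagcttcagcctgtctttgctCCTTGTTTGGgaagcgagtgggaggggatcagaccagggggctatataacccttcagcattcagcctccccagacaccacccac
Tpm1: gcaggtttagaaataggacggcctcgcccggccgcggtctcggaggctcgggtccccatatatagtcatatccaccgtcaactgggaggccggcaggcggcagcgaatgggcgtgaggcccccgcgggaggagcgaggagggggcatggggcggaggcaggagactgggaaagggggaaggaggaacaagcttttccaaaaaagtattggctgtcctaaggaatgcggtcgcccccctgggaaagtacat
A match is a description of the sequence, and the lack of one says only that these letters are not in that window.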

How the data were processed

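Fragments per gene were counted by the authors, and the deposited table holds raw counts for 16 libraries. The methods name tophat2 and featureCounts with multi-mapping fragments counted and no strand stated, whereas the submitters' processing notes list HISAT2 2.1.0, featureCounts and the rn6 build; which aligner made the table is not settled. Closely related genes (actins, tropomyosins, Myl9 with Myl12a and Myl12b) may share fragments, so their counts are uncertain.

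Counts were analysed in R 4.3.3 with edgeR 4.0.16 (TMM scaling, filter on low counts, quasi-likelihood test with Benjamini-Hochberg adjustment over all genes tested) and DESeq2 1.42.0 (Wald test), with 8 libraries per comparison and 16 for the interaction. SE was |log2 fold change| over the square root of F. The code was tested on simulated data. Exact two-sided permutation tests used log2(FPM + 1), 40 in all. The members and lists were chosen with earlier results of these data known. Named genes of a list are the up to 3 most positive and up to 3 most negative DEGs of a comparison, undetected defining markers, and all 10 members. Alternatives tried were DESeq2 alone, an FDR of 0.05, other scalings and filters, a single model, the second number as covariate or subset, another pseudocount and each library left out. Promoter sequences are from RefSeq (GRCr8), 7 of 10 members matched by symbol.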

Additional observations from a re-analysis of the deposited data

Results flagged for a closer look

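A single library stood apart from the other 3 of its group in 8 of the 37 groups of values checked, where chance gives about 1 in 20. In 5 of these the other 3 libraries were at 0, so that any count sets the library apart, and in the remaining 32 groups it was 3 against 1.6 by chance. The 5 were Actg2 at 0.0313 FPM in N16 (NRK-49F at pH 6.0), Cnn1 at 0.0572 FPM in N9 and Myl9 at 0.101 FPM in N10 (NRK-49F at pH 7.4), and Myocd at 0.0415 FPM in N5 and 0.0450 FPM in N4 (NRK-52E at pH 7.4 and pH 6.0). Tpm1 was 1472 FPM in N8 against 1043 to 1110.0 FPM in the other acid NRK-52E libraries. Tpm2 was 510.5 FPM in N13 against 364 to 389 FPM in the other NRK-49F libraries at pH 7.4, and Myh9 was 572.5 FPM in N11 against 367 to 399 FPM in the other acid NRK-49F libraries.

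The pH effect, as NRK-52E minus NRK-49F in log2 units, differed between the lines by the interaction test for Tagln (-1.53), Tpm1 (1.18), Tpm2 (1.31) and Cald1 (-0.51).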

How the results depend on the processing

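Of 673 recomputed log2 fold changes of members, 628 kept their direction and their side of the threshold, 20 lost the call, 18 gained it and 7 changed sign. The changes of sign were all in values not called: Tpm1 in NRK-52E (0.15 within number 22, and from -0.15 to 0.053 as each library was left out, with 0.01 without N1, 0.02 without N3 and 0.00 without N4) and Myh9 between lines at pH 6.0 (from -0.26 to 0.10 as each library was left out, with 0.00 without N16). In NRK-52E the members called higher, 0 on all libraries, were 1 by DESeq2 alone, 2 at an FDR of 0.05 and 1, Cnn1, with no filter. Those called lower, 3, were 1 within number 22 and 5 with no filter. With no filter Actg2 entered and Acta2 gained its call (-0.92, FDR 0.00523). Between lines at pH 6.0 the members called higher went from 1 to 0 with library totals, with the covariate and within number 21, and for the interaction those called lower went from 2 to 1 within number 21. Within number 21 and number 22 DEGs among all genes were 5244 and 2818 in NRK-52E, within number 20 and number 21 4680 and 1980 in NRK-49F, and within number 21 5669 and 7374 between lines at pH 7.4 and pH 6.0 and 2522 for the interaction. The numbers of a line thus differed with 2 libraries per group in each. As each library was left out, members called higher and lower were 0 to 2 and 2 to 4 in NRK-52E, 0 to 0 and 4 to 5 in NRK-49F, 1 to 1 and 6 to 6 between lines at pH 7.4, 0 to 1 and 5 to 6 at pH 6.0, and 2 to 3 and 2 to 2 for the interaction. DEGs among all genes then ran from 6789 to 8914, 4125 to 4992, 8562 to 9325, 7487 to 9263 and 4649 to 5952 in the same order. The cause of these changes was not tested. No paired analysis was possible because the labels do not say which libraries came from the same co-culture and each library has a number of its own; the second number, shared by 2 libraries per group, was fitted as a covariate. The permutation tests gave the same p with a pseudocount of 0.1. Actg2, Cnn1 and Myocd, with at most 62 counts in a group, are limited by depth.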
